A study of Rattus norvegicus with 36 samples.

Results

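Nuclear receptors are transcription factors that most often switch on or off by binding a small fat-soluble molecule. The 34 nuclear receptor genes described here are those of 14217 measured genes whose array symbol follows the systematic receptor naming (Nr, a digit, a letter and a digit) or stands on a list of receptors under their older names, such as Ppara and Rxra. Nr0b2, Nr1d1, Nr1d2, Thra and Thrb were left out by the rule. Hnf4g and Nr6a1, which the rule would also take, were not analysed here, and the other 34 of 36 listed genes had at least 1 probe set that names them alone. Where a gene had several probe sets, the one with the highest mean over all arrays was used, which concerned 15 genes.

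The study gave male Sprague Dawley rats the flame retardant bis(2-ethylhexyl) tetrabromophthalate (TBPH), a phthalate diester that carries bromine on its ring, by oral gavage in corn oil for 5 days. Dosing began at 7 weeks of age, each dose came in 5 ml per kg of body weight, and RNA came from the left lobe of the liver 1 day after the last dose. There were 36 arrays in 6 groups of 6, with corn oil vehicle alone or with TBPH from 0.07 through 0.71, 7.06 and 70.6 to 706 mg/kg. Whether the 6 arrays of a group are 6 rats is not in the labels, and p-values measure only the spread between these samples, which may be technical.

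Many nuclear receptors of liver bind DNA as a partner of a retinoid X receptor, at copies of the 6-base half-site AGGTCA or its variant AGTTCA set a few bases apart. In hepatocytes they read fatty acids, oxysterols, bile acids, drugs and glucocorticoids, and set the genes that make and clear them. PPARα is the receptor through which phthalates such as DEHP are known to act in rodent liver, and CAR and PXR are the receptors that answer many halogenated compounds. A receptor can be switched on with no change in its own mRNA, so an array of receptor mRNA measures how much of the message is there and not how active the protein is.

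The promoters of Esrrg, Rarb, Nr5a2 and Nr1i2 are printed first, since pairs of these genes had some of the strongest relations from array to array described further on: Esrrg ran opposite to Rarb, and Nr5a2 went with Rarb and with Nr1i2. They come from RefSeq (rat build GRCr8), run 5′ to 3′ along the gene from 250 bases before the start of transcription to 50 bases after it, and carry matches to the half-site, to its variant or to the repeat described below in capitals. The windows are chr13:101755510-101755809 on the plus strand for Esrrg and chr15:11336142-11336441 on the plus strand for Rarb. They are chr13:50984889-50985188 on the minus strand for Nr5a2 and chr11:75965467-75965766 on the plus strand for Nr1i2. Esrrg has 4 start sites listed. Only 1 of their windows holds a match, and it was picked for printing because of that match.
Esrrg: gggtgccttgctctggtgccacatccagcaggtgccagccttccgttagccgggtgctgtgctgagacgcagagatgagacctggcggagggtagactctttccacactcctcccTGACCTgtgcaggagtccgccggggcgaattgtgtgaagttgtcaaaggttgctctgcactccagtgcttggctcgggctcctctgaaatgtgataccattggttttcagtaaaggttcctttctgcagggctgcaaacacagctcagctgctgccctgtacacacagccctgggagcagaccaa
Rarb: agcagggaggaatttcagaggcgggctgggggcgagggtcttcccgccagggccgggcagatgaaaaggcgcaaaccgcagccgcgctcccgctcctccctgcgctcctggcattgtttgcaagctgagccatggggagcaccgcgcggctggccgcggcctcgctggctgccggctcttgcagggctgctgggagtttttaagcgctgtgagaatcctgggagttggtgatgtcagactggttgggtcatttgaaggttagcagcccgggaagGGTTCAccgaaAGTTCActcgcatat
Nr5a2: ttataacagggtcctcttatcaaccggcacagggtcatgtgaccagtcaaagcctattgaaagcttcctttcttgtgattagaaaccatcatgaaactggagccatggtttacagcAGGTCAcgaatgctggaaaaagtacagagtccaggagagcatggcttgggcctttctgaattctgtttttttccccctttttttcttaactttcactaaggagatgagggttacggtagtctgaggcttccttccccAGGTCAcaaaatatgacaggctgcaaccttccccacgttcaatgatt
Nr1i2: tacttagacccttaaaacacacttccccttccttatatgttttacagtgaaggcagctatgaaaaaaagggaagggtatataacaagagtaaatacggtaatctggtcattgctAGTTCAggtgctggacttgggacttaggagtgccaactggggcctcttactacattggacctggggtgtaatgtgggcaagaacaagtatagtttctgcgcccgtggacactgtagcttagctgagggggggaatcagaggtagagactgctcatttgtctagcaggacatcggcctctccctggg

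Both strands were searched, and positions count from 1 at the first transcribed base and from -1 at the base before it. The Rarb window holds GGTTCA and AGTTCA with 5 bases between them, starting at position 25, which is the textbook retinoic acid response element of this gene. That spaced repeat was found in 3 of 33469 promoters (0.00896%), and Rarb was the only receptor gene among them. Its AGTTCA copy, at position 36, also counts as a match of that half-site. The printed window of Esrrg, 1 of 4, holds AGGTCA at position -135, read on the opposite strand. Nr5a2 holds AGGTCA at positions -134 and 4, and Nr1i2 holds AGTTCA at position -136. Of the 34 genes, 29 had a promoter in the table, with 36 windows in all. AGGTCA stood in 4 of these 36 windows against 16.2% of all promoters, and the variant AGTTCA in 6 of 36 against 14.5%. A match is a run of letters and not a shown binding site.

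Each array gives a log2 value for 31042 probe sets that are not array controls. The median of an array lay between 5.06 and 5.14, and a receptor gene was taken as expressed above the array median where its value was higher than that median. By this rule 21 of the 34 genes (61.8%) were above the median on all 36 arrays, 2 on some arrays and 11 on none. The share was 44.1% over all probe sets and 62.3% over genes with 1 probe set each, picked in the same way, so the receptors were near the share of other genes picked alike. Taking the lowest-mean probe set of each gene in place of the highest left 12 genes above the median on all arrays. Values of different genes are not ranked against each other, since probe sets bind with different strength, and none of the values is per length. In bulk liver, fewer cells of a type and less RNA per cell cannot be told apart.

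**Figure D1:**
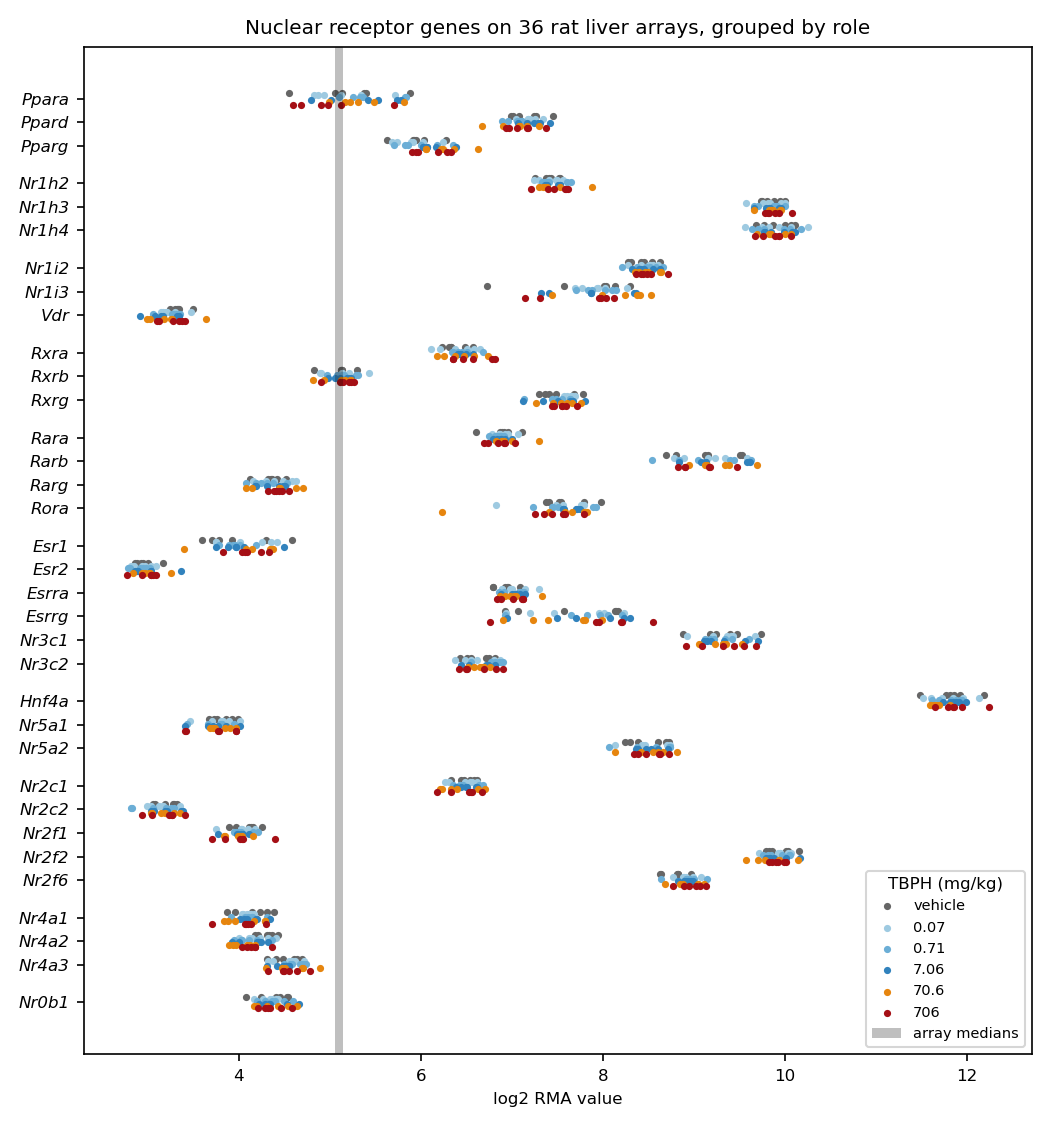
Log2 value of each of the 34 receptor genes on each of the 36 arrays, with genes in rows grouped by role, points coloured by dose and a grey band for the range of array medians (5.06 to 5.14). Of the 34 genes, 21 lie right of the band on all arrays, 11 lie left of it on all arrays, and Ppara and Rxrb cross it.

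Hnf4a and Nr5a2, receptors of the hepatocyte lineage, were above the median, and Nr5a1, grouped with them as the paralogue of Nr5a2, was below it. Hnf4a, which sets hepatocyte identity, had a mean log2 value of 11.81 with an SD within groups of 0.17. Nr5a2, known as LRH-1 and a driver of bile acid synthesis genes, had a mean of 8.52 (SD within groups 0.21). Nr5a1, the steroidogenic factor of adrenal and gonad, had a mean of 3.77 and was below the median on every array.

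All 3 sterol and bile acid sensors were above the median on every array. Nr1h4, which encodes the bile acid receptor FXR, had a mean of 9.90 (SD within groups 0.18). Nr1h3 and Nr1h2, which encode the oxysterol receptors LXRα and LXRβ, had means of 9.85 (SD 0.12) and 7.45 (SD 0.14). The SD of Nr1h3 was the smallest of the 21 genes above the median.

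Among the xenobiotic and vitamin D sensors, Nr1i2 and Nr1i3 were above the median and Vdr was not. Nr1i2, which encodes PXR, had a mean of 8.47 with an SD within groups of 0.13. Nr1i3, which encodes CAR, had a mean of 7.91 and ranged from 6.72 to 8.53, with an SD within groups of 0.39. Vdr, the vitamin D receptor, had a mean of 3.25.

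Of the fatty acid sensors, Ppara lay close to the median. It had a mean of 5.25, ranged from 4.55 to 5.88 and was above the median on 24 of 36 arrays. Its SD within groups was 0.37. Ppard and Pparg, the other receptors of this family, had means of 7.14 and 6.06 and were above the median throughout. The retinoid X receptors, the shared partners, had means of 6.45 for Rxra, 7.54 for Rxrg and 5.12 for Rxrb, which was above the median on 26 arrays.

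Among the retinoic acid and ROR receptors, Rarb had a mean of 9.17, Rora of 7.55 and Rara of 6.89, while Rarg, at 4.37, was below the median throughout. The steroid and estrogen-related group was split in the same way. Nr3c1, the glucocorticoid receptor, had a mean of 9.33, Nr3c2, the mineralocorticoid receptor, 6.67, and the estrogen-related receptors Esrra and Esrrg, which act on genes of energy metabolism, 7.01 and 7.72. The estrogen receptors Esr1 (4.04) and Esr2 (2.97) were below the median on every array.

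Of the COUP-TF and testicular receptors, which have no well-settled ligand, Nr2f2 (9.92), Nr2f6 (8.91) and Nr2c1 (6.48) were above the median, and Nr2f1 (4.02) and Nr2c2 (3.17) were not. The 3 immediate early receptors, which can be switched on within a short time of a stimulus, were below the median on every array. They were Nr4a1 (4.11), Nr4a2 (4.16) and Nr4a3 (4.55). Nr0b1 (4.37), an atypical receptor without a DNA-binding domain of the usual kind, was below it too.

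Receptor genes above the median varied among arrays of a dose group somewhat more than the probe sets above it as a whole. Their median SD within groups was 0.168 on the log2 scale, against 0.140 for all probe sets above the median on all arrays, and 16 of the 21 exceeded the latter. That wider set was not cut to 1 probe set per gene as the receptors were, and the median SD of such a set was not computed. Over all 34 genes the median SD was 0.154, against 0.147 over all probe sets. Among the 21 genes above the median on all arrays, the 5 of largest spread were Esrrg (0.52), Nr1i3 (0.39), Rora (0.33), Rarb (0.31) and Nr3c1 (0.24). The smallest of the 21 were Nr1h3 (0.12), Rara (0.12) and Nr2f6 (0.13). Outside the 21, Ppara (0.37) and Esr1 (0.28) had a wide spread too. Measured by the median absolute deviation, which gives single arrays less weight, the spread was 0.45 for Esrrg, 0.23 for Nr1i3, 0.16 for Rora and 0.07 for Rara.

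Esrrg had at least 1 array near 7 and at least 1 near or above 8 in every group. Its lowest, median and highest values were 6.93, 7.85 and 8.17 with vehicle, 6.93, 7.71 and 8.24 at 0.07 mg/kg, and 6.92, 7.90 and 8.21 at 0.71 mg/kg. They were 6.95, 7.89 and 8.30 at 7.06 mg/kg, 6.90, 7.59 and 7.99 at 70.6 mg/kg, and 6.76, 8.08 and 8.56 at 706 mg/kg. The 6 groups overlapped almost whole, so that the spread of Esrrg lay within the groups and not between them.

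Rarb ranged from 8.70 through a median of 9.14 to 9.53 with vehicle. At 0.07, 0.71 and 7.06 mg/kg its lowest values were 8.79, 8.55 and 8.84, its medians 9.19, 9.22 and 9.13, and its highest values 9.59, 9.63 and 9.61. At 70.6 mg/kg Rarb ran from 8.94 through 9.24 to 9.70, and at 706 mg/kg from 8.83 through 9.04 to 9.47. As with Esrrg, the 6 groups of Rarb overlapped and none stood apart.

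Rora, the clock-linked receptor that drives transcription at sites where the repressor Nr1d1 also binds, owed much of its spread to a pair of arrays. Replicate 5 at 70.6 mg/kg had a Rora value of 6.23 and replicate 4 at 0.07 mg/kg one of 6.83, while the other 34 arrays were at 7.23 or higher. Those 2 arrays also had the largest difference between the 3′ and 5′ GAPDH control probe sets, a measure of RNA degradation and labelling, at 0.41 and 0.33, where the next highest array had 0.093. Without them the SD of Rora within groups was 0.19 in place of 0.33. The part of RNA quality in the low Rora values was not tested.

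Nr3c1 had nearly level groups. Its median was 9.32 with vehicle (8.88 to 9.74), 9.39 at 0.07 mg/kg (8.93 to 9.67), 9.28 at 0.71 mg/kg (9.12 to 9.61), 9.26 at 7.06 mg/kg (9.11 to 9.71), 9.32 at 70.6 mg/kg (9.06 to 9.53) and 9.39 at 706 mg/kg (8.91 to 9.69). Nr1h3 stayed within 9.57 and 10.08 on all 36 arrays, with group means from 9.83 to 9.89. Rara had group means from 6.84 at 0.71 mg/kg to 6.97 at 70.6 mg/kg, where replicate 5 was the highest array of all at 7.30.

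No receptor gene passed the test against vehicle at any dose. With limma across all 36 arrays, 0 of 31042 probe sets passed a Benjamini-Hochberg adjusted p of 0.05 at any of the 5 doses, for a slope over dose rank, for any difference among the 6 groups or for 706 against 70.6 mg/kg. The background at an unadjusted p under 0.05 was 3.07% of probe sets at 0.07 mg/kg, 3.98% at 0.71 mg/kg, 3.48% at 7.06 mg/kg, 5.24% at 70.6 mg/kg and 3.48% at 706 mg/kg. The receptor genes under that p numbered 0, 1, 2, 2 and 1 of 34 in the same order, which is near the background at each dose. No receptor gene had groups that did not overlap at any dose, against 0.148%, 0.155%, 0.216%, 0.168% and 0.142% of all probe sets, and none did between 706 and 70.6 mg/kg, against 0.0838%. All doses were compared with the same vehicle arrays, so a difference that recurs at several doses is not independent.

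The intervals bound how large a change in array signal could have gone unseen. For the 11 genes below the median on every array, signal over background limits what the intervals say of the mRNA. For 34 of 34 receptor genes the 95% interval of the log2 difference lay inside a 2-fold change in either direction at each dose, as for 99.5% to 99.7% of all probe sets. Inside 1.5-fold lay 33 genes at 0.07 mg/kg, 32 at 0.71, 33 at 7.06, 32 at 70.6 and 32 at 706 mg/kg. The share of all probe sets inside 1.5-fold ran from 97.1% to 97.9%. The median difference of the 34 genes was -0.01 at 0.07 mg/kg, -0.01 at 0.71, 0.02 at 7.06, 0.01 at 70.6 and 0.01 at 706 mg/kg on the log2 scale.

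**Figure D2:**
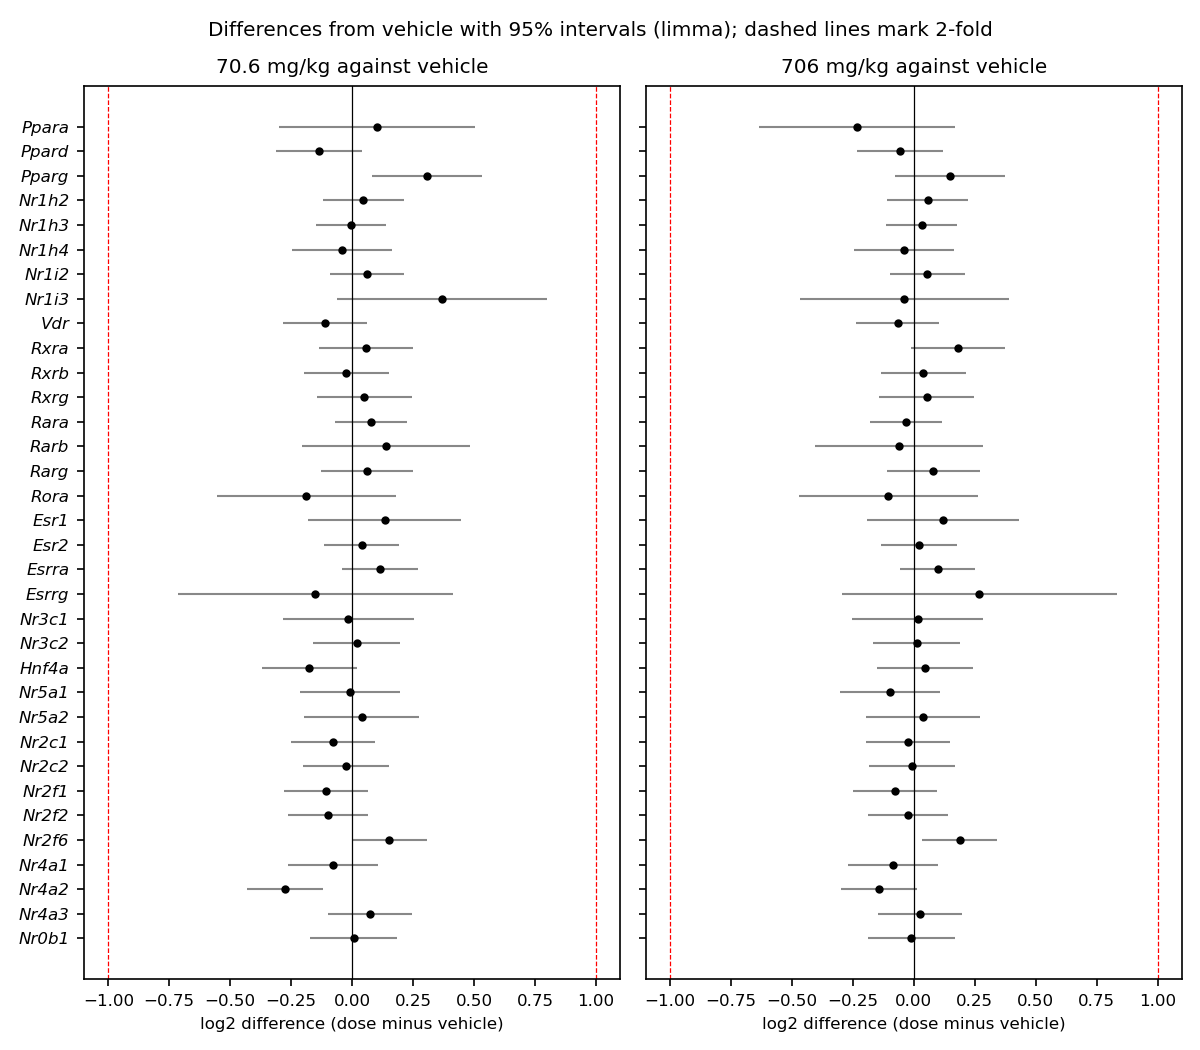
Log2 difference from vehicle of each of the 34 receptor genes (rows) with its 95% interval from limma, for 70.6 mg/kg on the left and 706 mg/kg on the right, with dashed lines at 2-fold. In both panels all 34 intervals lie inside the dashed lines, and none of the genes passed the adjusted threshold.

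Ppara, the receptor most tied to phthalates, was not called at any dose. Its values ran from 4.55 through a median of 5.26 to 5.88 with vehicle and from 4.60 through 4.94 to 5.71 at 706 mg/kg, so the groups overlapped almost whole. The log2 difference of Ppara at 706 mg/kg was -0.23 (95% interval -0.63 to 0.17, limma adjusted p = 1.00). At the lower doses it was -0.10 at 0.07 mg/kg, 0.22 at 0.71, 0.14 at 7.06 and 0.10 at 70.6 mg/kg, and each interval held 0. The difference of Ppara turned to 0.03 at 0.07 mg/kg without vehicle replicate 1 and to -0.04 at 70.6 mg/kg without vehicle replicate 3.

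Nr1i3 (CAR) was highest at 70.6 mg/kg. There it ran from 7.44 through a median of 8.31 to 8.53, against 6.72 through 8.02 to 8.30 with vehicle. The difference was 0.37 (95% interval -0.06 to 0.80, limma adjusted p = 0.921) and ran from 0.15 to 0.51 when single arrays were left out. Nr1i3 at 706 mg/kg ran from 7.14 through 7.97 to 8.13, a difference of -0.04 from vehicle (95% interval -0.47 to 0.39). That difference turned positive, up to 0.08, on leaving out any of vehicle replicates 2 to 5, or either of replicates 3 and 4 at 706 mg/kg. At 0.07, 0.71 and 7.06 mg/kg the differences were 0.14, 0.15 and 0.06, and each turned negative without vehicle replicate 1, the lowest Nr1i3 array, at -0.07, -0.06 and -0.15.

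Nr1i2 (PXR) and Nr1h4 (FXR) were the most level of the receptors followed at every dose. Nr1i2 had medians of 8.44 with vehicle (8.27 to 8.63) and 8.46 at 706 mg/kg (8.37 to 8.72), with differences between 0.03 and 0.06 at the 5 doses. The interval of Nr1i2 at 706 mg/kg was -0.10 to 0.21. Nr1h4 had medians of 9.94 with vehicle (9.68 to 10.11) and 9.91 at 706 mg/kg (9.67 to 10.07). Its differences lay between -0.04 and 0.01, with an interval of -0.25 to 0.16 at 706 mg/kg.

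The smallest p of any receptor gene belonged to Nr4a2, also called Nurr1, at 70.6 mg/kg. Nr4a2 ran from 3.89 through a median of 4.03 to 4.18 there and from 4.17 through 4.32 to 4.43 with vehicle, so that the groups overlapped by a narrow margin. The difference was -0.28 (95% interval -0.43 to -0.12), and its limma adjusted p was 0.921. Nr4a2 was below the array median on every array. The mean of its probe sets gave -0.11 at that dose, but the other probe set alone gave 0.05. With the probe set used, the differences were -0.10 at 0.07 mg/kg, -0.19 at 0.71 (95% interval -0.35 to -0.03), -0.16 at 7.06 and -0.14 at 706 mg/kg, with no order by dose. The other probe set gave -0.05, 0.01, -0.18 and -0.06 at these doses.

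Pparg, known as the adipocyte receptor, came second at 70.6 mg/kg. It ran from 6.05 through a median of 6.23 to 6.63, against 5.63 through 5.94 to 6.28 with vehicle, with overlapping groups. The difference was 0.31 (95% interval 0.08 to 0.53, limma adjusted p = 0.921). Pparg at 706 mg/kg ran from 5.91 through 6.08 to 6.33, and the difference was 0.15. The slope of Pparg over dose rank was 0.05 log2 per step (95% interval 0.02 to 0.09, limma adjusted p = 0.998), where 4.16% of all probe sets had an unadjusted slope p under 0.05. Nr4a2 and Nr2f6 followed with slopes of -0.03 and 0.03, which made 3 of 34 receptor genes under that p.

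Nr2f6, a COUP-TF relative, was among the 3 smallest p at every dose. Its median was 8.82 with vehicle (8.63 to 8.97) and 8.90, 8.94, 8.93, 8.96 and 8.99 from the lowest dose to the highest, and 706 mg/kg ran from 8.77 to 9.13. The difference was 0.14 at 0.07, 0.71 and 7.06 mg/kg, 0.15 at 70.6 mg/kg and 0.19 at 706 mg/kg (95% interval 0.03 to 0.34, limma adjusted p = 1.00). The mean over the probe sets of Nr2f6 did not follow, at 0.02 at 706 mg/kg and -0.03 at 7.06 mg/kg. Of its 4 other probe sets, 3 were dim, at means from 3.73 to 4.47, and the other bright one, at 6.90, gave 0.06 at 706 mg/kg.

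**Figure D3:**
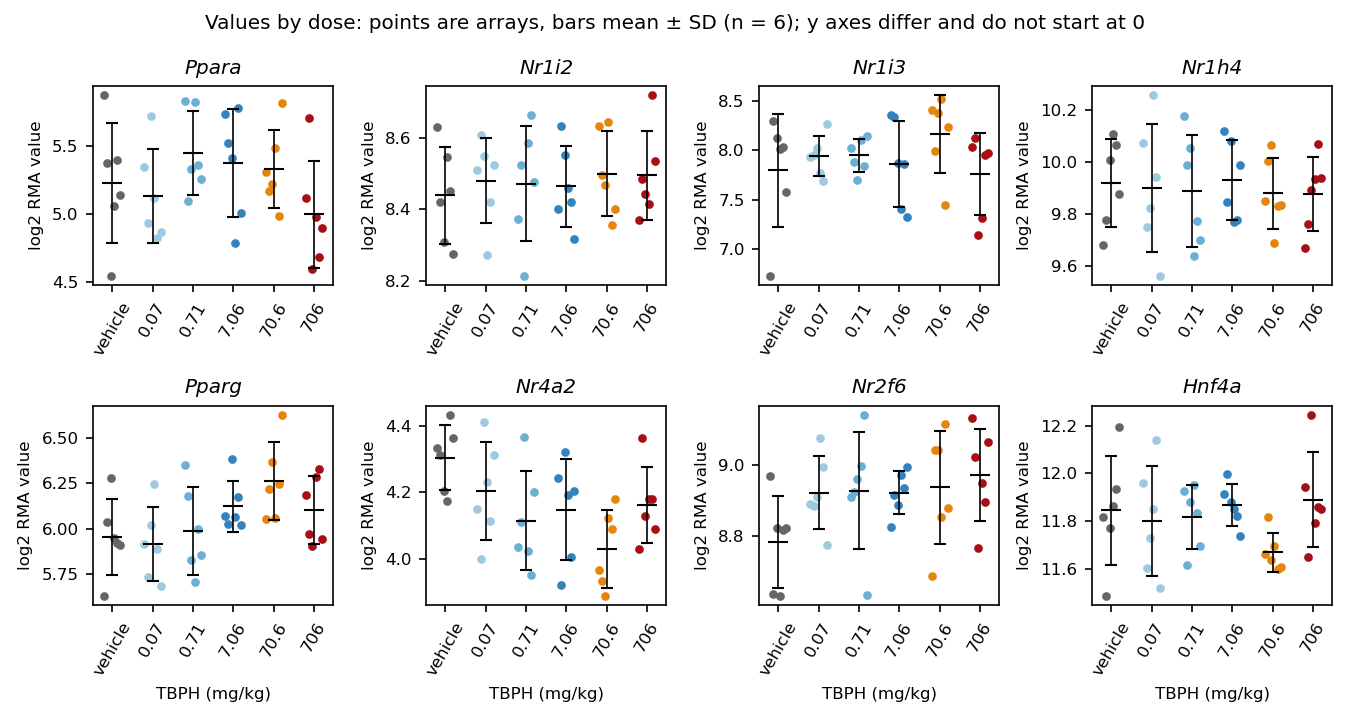
Log2 value of Ppara, Nr1i2, Nr1i3, Nr1h4, Pparg, Nr4a2, Nr2f6 and Hnf4a in vehicle and each dose group, 1 panel per gene, with points for arrays and bars for the mean ± SD (n = 6). In each panel every dose group overlaps the vehicle arrays, by a narrow margin for Nr4a2 at 70.6 mg/kg (4.18 at most against 4.17 at least).

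The other genes among the 3 smallest p of a dose had an adjusted p of 1.00 each with limma. At 0.07 mg/kg Esrra was 0.12 higher than vehicle, with medians of 6.99 and 6.94, and Rxrg 0.14 higher, with medians of 7.65 and 7.44. At 0.71 mg/kg Nr3c2 was 0.17 higher, with medians of 6.84 and 6.64. At 7.06 mg/kg Vdr was 0.18 lower by its mean, at 3.16 against 3.34 (95% interval of the log2 difference -0.35 to -0.0047), on a probe set below the array median throughout. Rxra was 0.18 higher at 706 mg/kg (95% interval -0.01 to 0.37), running from 6.36 through 6.52 to 6.82 against 6.24 through 6.33 to 6.58.

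For any difference among the 6 groups, Nr4a2, Pparg and Ppard had the smallest p by limma's F test, each with an adjusted p of 1.00. Nr4a2 and Pparg were under an unadjusted 0.05, which is 2 of 34 receptor genes, where 2.54% of all probe sets were. Between the 2 highest doses, which share no vehicle arrays, Hnf4a was 0.22 higher at 706 than at 70.6 mg/kg (95% interval 0.02 to 0.42, limma adjusted p = 1.00). Hnf4a ran from 11.60 through 11.65 to 11.82 at 70.6 mg/kg and from 11.65 through 11.85 to 12.24 at 706 mg/kg. It was the single receptor gene under an unadjusted 0.05 there, against 3.35% of all probe sets. Nr1i3 came next at -0.41 (95% interval -0.84 to 0.02), and Nr4a2 at 0.13.

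By role, the 34 genes split in both directions at the top dose. There the 6 steroid and estrogen-related receptors had differences from 0.01 to 0.27 with a median of 0.06, and the 3 retinoid X receptors from 0.04 to 0.18 with a median of 0.05. The 3 sterol and bile acid sensors ran from -0.04 to 0.06 and the 3 fatty acid sensors from -0.23 to 0.15. The 3 immediate early receptors ran from -0.14 to 0.02. Over all 34 genes 18 were higher and 16 lower than vehicle at that dose, where the median over all probe sets was -0.003.

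Coregulators are the proteins that receptors recruit to open or close chromatin, and 19 of 22 listed were measured. Of these 17 were above the array median on all arrays, among them Ncoa1, Ncor1, Crebbp and Ep300. None passed the adjusted threshold at any dose. Against vehicle, 706 mg/kg had 13 of them higher and 6 lower (median 0.03). The smallest p there were those of Tbl1x, a subunit of the NCoR corepressor complex, at 0.12 (95% interval 0.01 to 0.22), and Nrip1, a receptor corepressor, at 0.20 (0.02 to 0.38). These were the 2 of 19 under an unadjusted limma p of 0.05 at that dose, against 3.48% of all probe sets. Nrip1 was about as high at the lowest dose, at 0.19 (95% interval 0.01 to 0.37).

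All 7 hepatocyte markers were measured, as the liver label asks, with a mean of the list between 13.0 and 13.2 on every vehicle and 706 mg/kg array. The list was above the array median throughout, as were the measured markers of Kupffer cells (5 of 7 listed) and sinusoidal endothelium (5 of 7). Of the 7 stellate cell and fibroblast markers 6 were above the median on all arrays, of 4 cholangiocyte markers 1 was, and of 5 lymphocyte markers none. The stellate markers had no order by dose: 3 of 7 were higher than vehicle at 0.07 mg/kg (median -0.03), 6 at 0.71 (median 0.19), 4 at 7.06 (median 0.03), 2 at 70.6 (median -0.03) and 7 at 706 mg/kg (median 0.13). At the highest dose the list mean ran from 7.37 to 7.48 against 6.90 to 7.75 with vehicle. None of the markers passed the adjusted threshold, and their part in the receptor values was not tested.

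The arrays of a group were then used to ask which receptor genes varied together, after each group's mean was taken away. Of 29 pairs fixed from textbook knowledge, 28 were run, 17 of a receptor with a target gene and 11 of receptors with each other. Pearson's r and Spearman's rho were tested with 100000 permutations over 36 arrays, with Benjamini-Hochberg adjustment over the 28. The pairs past an adjusted p of 0.05 by both measures were Rora with Nr1d1 and Rxra with Nr1h3. The share of other gene pairs past that threshold was not computed.

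Rora, an activator of Nr1d1 transcription by textbook account, was low where Nr1d1 was high. The relation had r = -0.82 (adjusted permutation p = 0.0003) and rho = -0.60 (adjusted p = 0.0042). Within groups r was negative in 6 of 6 but uneven, from -0.085 at 7.06 mg/kg to -0.97 at 70.6 mg/kg. It was -0.33 with vehicle and -0.83 at 0.07 mg/kg. Nr1d1 encodes REV-ERBα, the clock repressor that competes with ROR receptors. Its value was 6.60 on replicate 5 at 70.6 mg/kg and 5.62 on replicate 4 at 0.07 mg/kg, the arrays of lowest Rora, and at most 5.56 on the other 34 arrays. Without those 2 arrays r was -0.52, and without the 2 arrays of Rora farthest from its median -0.60. The GAPDH 3′ to 5′ difference also followed Rora over all arrays, at r = -0.78 (rho = -0.62), and at -0.36 without those 2. Its part in the relation was not tested.

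Rxra, the shared partner, was high on the arrays where its partner Nr1h3 (LXRα) was high. The relation had r = 0.58 (adjusted permutation p = 0.0018) and rho = 0.57 (adjusted p = 0.0046), and r was positive within 6 of 6 groups, from 0.26 at 7.06 mg/kg to 0.91 at 706 mg/kg. It was 0.53 without the 2 arrays of Rxra farthest from its median and 0.54 without the 2 arrays of low Rora. Among all pairs of the 8856 genes above the median on all arrays, 5.90% reached an absolute r of 0.5. The other partners of Rxra gave r = -0.16 for Ppara, -0.30 for Nr1h4, -0.03 for Nr1i2 and 0.15 for Nr1i3, none past the threshold.

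Apart from Rora with Nr1d1, no pair of a receptor with a textbook target passed the adjusted threshold. Falling short of it does not show that a relation is absent, since weak or moderate relations can miss it with this many arrays. Ppara gave r = 0.13 with Cyp4a1 and 0.21 with Ehhadh, both enzymes of fatty acid oxidation. Nr1i2 gave r = -0.30 with Cyp3a23-3a1, Nr1i3 gave 0.33 with Ephx1, Nr1h4 gave 0.01 with Nr0b2 and 0.28 with Abcb11, and Nr5a2 gave 0.30 with Cyp7a1. Nr1h3 gave r = 0.37 with Srebf1 (rho = 0.43), positive in 6 of 6 groups, with an adjusted permutation p of 0.168. Nr3c1 gave r = -0.42 with Fkbp5, with an adjusted permutation p of 0.101. The pair Nr1i3 with Cyp2b2 was not run.

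All 210 pairs of the 21 receptor genes above the median were examined as well, a step added after the data were seen. Of these, 30 pairs passed an adjusted permutation p of 0.05 by r, 17 positive and 13 negative. The share of pairs of other genes past that threshold was not computed. By rho 24 of the 30 passed too, 21 had the same sign in all 6 groups, and all 30 kept their sign without the 2 arrays of low Rora. An absolute r of 0.5 or more was reached by 21 of the 210 pairs, against 5.90% of all pairs of the 8856 genes above the median on all arrays. At 0.6 the receptor pairs numbered 12 (5.71% against 2.10%), and at 0.7 they numbered 4, where 0.551% of all pairs did. Without the 2 arrays of low Rora, 17 receptor pairs reached 0.5, and the share of all pairs was not computed without them. Pairs that share a gene are not independent, so these shares are a description and were not tested.

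**Figure D4:**
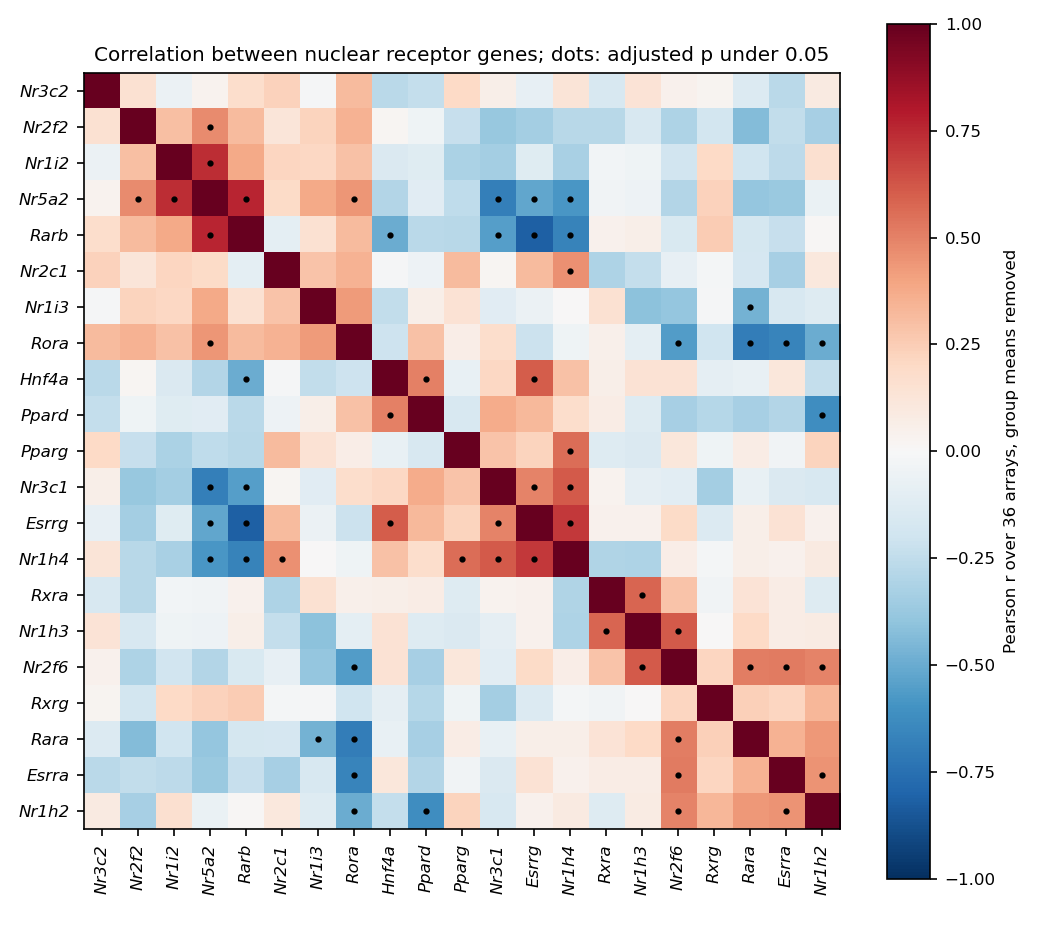
Pearson r over 36 arrays between each pair of the 21 receptor genes above the array median, with group means removed, as a colour from negative to positive. Esrrg, Nr1h4 and Nr3c1 stand opposite Rarb and Nr5a2.

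The strongest relation was between Esrrg and Rarb, which ran opposite to each other. The pair had r = -0.82 and rho = -0.84 (adjusted permutation p = 0.0003 for r), and r within the 6 groups ran from -0.91 to -0.74. It was -0.79 without the 2 arrays of Esrrg farthest from its median, and -0.82 without the 2 arrays of low Rora. The mean over the probe sets of each gene gave -0.82. With vehicle the 2 arrays of lowest Esrrg, at 6.93 and 7.07, had Rarb values of 9.53 and 9.51, and the array of highest Esrrg, at 8.17, had the lowest Rarb, at 8.70.

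Nr5a2 went with Rarb and Nr1h4 with Esrrg. Rarb and Nr5a2 had r = 0.76 and Nr1i2 and Nr5a2 r = 0.74, while Esrrg had r = 0.70 with Nr1h4 and 0.60 with Hnf4a. Between these, Nr1h4 had r = -0.67 with Rarb and -0.58 with Nr5a2, and Esrrg had r = -0.52 with Nr5a2. Nr3c1 had r = 0.62 with Nr1h4, 0.50 with Esrrg, -0.55 with Rarb and -0.68 with Nr5a2. Each of these pairs had the same sign in 6 of 6 groups.

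Relations of Nr5a2 depended on its probe set. The mean over its 3 probe sets moved r from -0.68 to -0.13 with Nr3c1, from -0.52 to -0.20 with Esrrg, from -0.58 to -0.35 with Nr1h4 and from 0.76 to 0.47 with Rarb. One of the other probe sets of Nr5a2 had an SD within groups of 0.75, far above the 0.21 of the probe set used. Nr1h3 with Nr2f6 showed the same, at r = 0.61 with the probe sets used and 0.20 with the mean over probe sets.

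**Figure D5:**
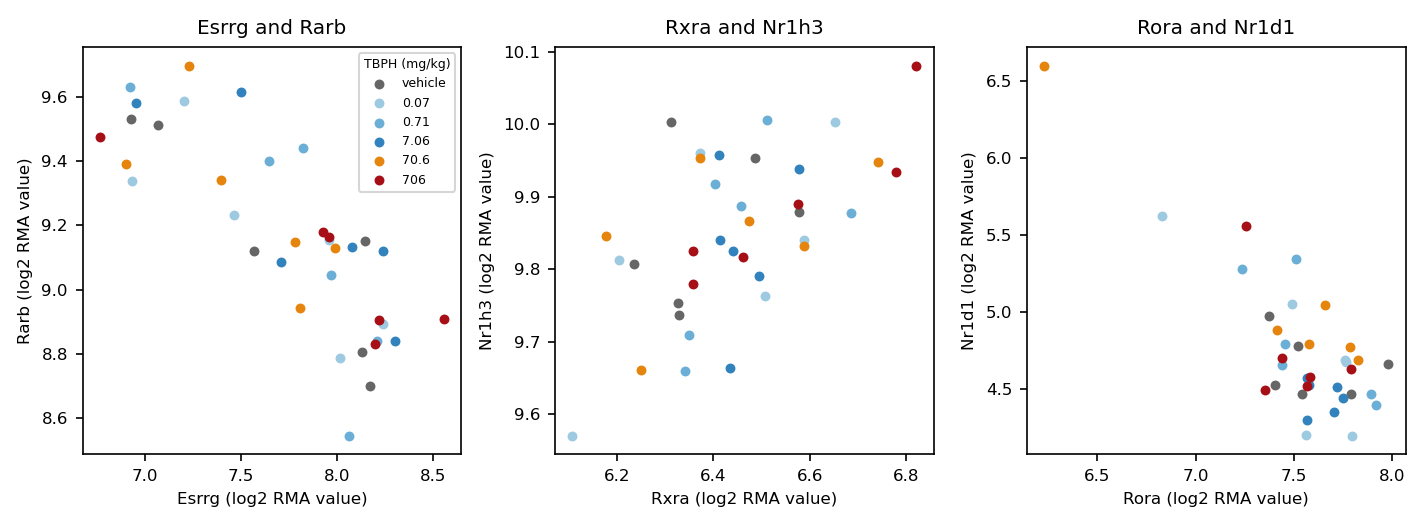
Log2 values of pairs of genes on 36 arrays, 1 point per array coloured by dose, for Esrrg and Rarb (left), Rxra and Nr1h3 (middle) and Rora and Nr1d1 (right). The array of lowest Rora (6.23) has the highest Nr1d1 (6.60). Esrrg and Rarb run opposite to each other within each dose group (r = -0.91 to -0.74), and no dose group takes a place of its own.

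The hepatocyte marker mean went along with the same genes. Among 63 relations of 9 receptor genes with marker means and the GAPDH difference, 7 passed an adjusted permutation p of 0.05 by r. This step was also added after the data were seen. The share of other genes past that threshold was not computed, so the count singles out no receptor. The hepatocyte marker mean had r = 0.59 with Esrrg, 0.53 with Nr1h4, 0.53 with Nr3c1, -0.60 with Rarb and -0.61 with Nr5a2. The marker mean itself varied little, from 13.0 to 13.2 with vehicle. The GAPDH difference had r = -0.50 with Nr5a2, and -0.18 without the 2 arrays of low Rora. By rho it did not pass, at -0.37 (adjusted permutation p = 0.202). The part of cell composition and of RNA quality in the relations between receptors was not tested.

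By number of partners past the threshold, Nr5a2 had 7, Nr1h4 6 and Esrrg, Nr2f6, Rarb and Rora 5 each. Such counts were not made for other genes, so they single out no receptor. They rest on 1 probe set per gene, and relations of Nr5a2 and Nr2f6 described above weakened with the mean over probe sets. Nr3c2 and Rxrg had none. Rora was opposite to Rara (r = -0.69) and Esrra (r = -0.66), and without the 2 arrays of low Rora these were -0.44 and -0.37. Nr1h2 was opposite to Ppard (r = -0.62), and Nr1h4 went with Pparg (r = 0.56).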

How the data were processed

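Liver RNA from 36 samples was hybridised to Affymetrix 3′ arrays. The deposited table holds log2 values, 1 per probe set and array; RMA and affy made them, per the submitters' processing notes, which carry no versions, and a genome build is not given in the sources used here. The table has 31099 probe sets, of which 57 array controls were not used. The platform annotation gave 20826 probe sets 1 symbol, 436 several and 9780 none, and genes were named from the first kind; all 34 receptor symbols matched current ones by Entrez ID. Arrays give no read depth, and their number limits the precision.

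Groups were compared with limma 3.58.1 in R 4.3.3, fitting the 6 group means over the 36 arrays, two-sided, with Benjamini-Hochberg adjustment over 31042 probe sets. The series' design text names R/maanova at a false discovery rate of 5%; limma was used in its place. The comparisons were each dose against vehicle, 706 against 70.6 mg/kg, any difference and a slope over dose rank. limma was tested on simulated data. Correlations used values minus group means and 100000 two-sided permutations (numpy 2.4.6 in Python 3.11.15). Figures were drawn with matplotlib 3.10.9. Same-numbered arrays did not deviate together on average (mean r -0.02 over 90 pairs, 17 above 0.1, against a mean of 0.003 for other numbers). The numbers were not used as pairs in the main fit, and whether they mark a pairing is not in the labels.

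Genes named with full values were the 3 of smallest p in each comparison, the 5 of largest and 3 of smallest spread among genes above the median, and Ppara, Nr1i2, Nr1i3 and Nr1h4 at every dose; of the coregulators, the 2 of smallest p at 706 mg/kg. The members, lists, pairs and tests were chosen with earlier results of these data known. Promoter motifs were chosen after the data were seen. Alternatives covered the arrays in the fit, the replicate number as a block, variance moderation, array weights, dim probe sets, centring, 1 probe set per gene, dose on a log scale, spread by median absolute deviation and each array left out in turn.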

Additional observations from a re-analysis of the deposited data

Results flagged for a closer look

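Among 204 sets of 6 arrays (34 receptor genes in 6 groups), 9 had a highest or lowest array whose gap to its neighbour was wide for the range of the set, by Dixon's 95% critical value. Chance gives about 1 in 20, or 10.2 sets. Of the 9, 3 fell on replicate 5 at 70.6 mg/kg and 1 on replicate 4 at 0.07 mg/kg, the arrays of high GAPDH 3′ to 5′ difference.

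On replicate 5 at 70.6 mg/kg Rora was lowest at 6.23 (next 7.41), Rara highest at 7.30 (next 7.00) and Esr1 lowest at 3.40 (next 4.08). On replicate 4 at 0.07 mg/kg Rora was lowest at 6.83 (next 7.49). Esrrg was lowest at 6.76 on replicate 2 at 706 mg/kg, where the next array had 7.93. Rxrb was lowest at 4.82 on vehicle replicate 2 (next 5.12). The other 3 were genes below the array median throughout. Esr2 was highest at 3.37 on replicate 6 at 7.06 mg/kg (next 3.04), Nr2f1 lowest at 3.75 on replicate 2 at 0.07 mg/kg (next 4.03) and Vdr lowest at 3.06 on replicate 2 at 0.71 mg/kg (next 3.26).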

How the results depend on the processing

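With limma, 0 probe sets passed the adjusted threshold under every alternative run in each of the 8 comparisons. In the main fit, 788 to 1626 probe sets had an unadjusted limma p under 0.05, depending on the comparison. With the replicate number as a block (replicate block), 0 probe sets passed in each comparison, and 4 of 36 arrays correlated best with an array of their own number. That block gave 3 passing fixed pairs in place of 2, the added pair being Nr3c1 with Fkbp5; leaving out the 2 arrays of low Rora also gave 3, adding Nr1h3 with Srebf1, and values not centred gave 2. The receptor genes above the array median on all arrays numbered 12 with the lowest-mean probe set of each gene, in place of 21. They numbered 20 and 17 under other definitions of the median. By their mean over 36 arrays, 23 receptor genes were above the median of the probe set means.

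Some differences turned sign, none of them past a threshold. The mean of all probe sets gave Nr2f6 -0.00357 at 0.71 mg/kg and -0.0319 at 7.06 mg/kg, and array weights gave Nr1h4 -0.0140 at 7.06 mg/kg. Leaving out single arrays, Nr1h4 ran from -0.0894 to 0.0494 at 0.07 mg/kg, from -0.0874 to 0.0203 at 0.71, from -0.0363 to 0.0487 at 7.06 and from -0.0890 to 0.000155 at 706 mg/kg. Nr1i3 ran from -0.0698 to 0.245, from -0.0619 to 0.253, from -0.150 to 0.172 and from -0.253 to 0.0849 at the same doses. Nr1i2 ran from -0.00477 to 0.0851 at 0.71 and from -0.00833 to 0.0639 at 7.06 mg/kg, and Ppara from -0.233 to 0.0331 at 0.07 and from -0.0356 to 0.230 at 70.6 mg/kg. The cause was not tested. Signal over background limits what can be said of the 11 genes below the median.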

Other observations

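Of the 19 coregulators measured, Prox1, a homeodomain corepressor of Hnf4a and Nr5a2 in liver, had the lowest difference at 70.6 mg/kg, at -0.28 (95% interval -0.51 to -0.06, limma adjusted p = 0.921). Prox1 was the 1 of 19 under an unadjusted limma p of 0.05 at 70.6 mg/kg, against 5.24% of all probe sets. The difference of Prox1 at 706 mg/kg was -0.15 (95% interval -0.37 to 0.08).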
